A study of Homo sapiens with 6 samples.

Results

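The 35 genes described here encode proteins of the nuclear pore complex, a few close paralogs of them, and 3 receptors that carry cargo through the pore. They were chosen by name from the 16617 genes of the table, as every gene whose symbol is NUP followed by a digit plus 13 named pore and transport genes, and all 13 were in the table. The cells were T3M4, a line established from a human pancreatic ductal adenocarcinoma and grown in DMEM with fetal bovine serum. There were 3 RNA-seq libraries of cells given a METTL13 guide RNA (sgMETTL13, genotype METTL13 knockdown in the labels) and 3 of cells given a control guide (sgControl, called WT in the labels). METTL13 methylates the translation elongation factor eEF1A, and the study set these transcript profiles beside protein profiles of the same treatment, which were not used here. In bulk RNA a lower level in every cell and a loss from some of the cells cannot be told apart. The labels do not say whether the knockdown cells are a clone or a pool, nor whether the replicates are separate cultures, so the deposited p-values measure only the spread between these libraries, which may be technical.

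The nuclear pore complex is a large ring of proteins set in the nuclear envelope, through which proteins and RNA pass between nucleus and cytoplasm. Scaffold rings on both faces and an inner ring hold it to the membrane, membrane-spanning nucleoporins anchor it, and proteins with phenylalanine-glycine (FG) repeats line the channel. Importins and exportins bind those repeats and carry cargo, with the direction of transport set by the small GTPase Ran.

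The authors' deposited table gives, for each group, an average over the 3 libraries and no value per library, and it gives the authors' own log2 change of sgMETTL13 over sgControl with a p-value and an adjusted p. A gene is said here to have fallen or risen where that adjusted p is under 0.05. Standard errors (SE) and 95% intervals are implied, being worked back from the deposited fold change and p-value. Abundant genes are those whose mean of both group averages reached the table's median, 205 reads. Average estimated reads summed to 15247500 per library in sgMETTL13 and 15240866 in sgControl. The targeted gene averaged 143 reads in sgMETTL13 and 1015 in sgControl in the authors' deposited table (log2 change -2.78, adjusted p = 2.5e-127). All 8 ductal epithelial markers were measured, with summed deposited average TPM of 4729 in sgMETTL13 and 4887 in sgControl. Most of that sum was KRT19, KRT8 and KRT18 (2107, 1308 and 1053 TPM in sgControl). All 8 were lower in sgMETTL13 by TPM, as were 63.8% of all genes, and 4 lay below 0 by the deposited log2 change. Of the 8 the ductal transcription factor SOX9 fell (log2 change -0.28, adjusted p = 0.024 per the authors' deposited table), and its part in the results was not tested. Of 16 markers of acinar, endocrine, immune, endothelial and fibroblast cells 8 were listed, and apart from the collagen gene COL1A1 (14.2 TPM in sgMETTL13 and 14.0 TPM in sgControl in the authors' deposited table) they lay at or under 1.84 TPM.

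Of the 35 members 2 fell and 0 rose in sgMETTL13 cells by the authors' deposited table, and the remaining 33 missed the threshold. The 2 were NUP210, a membrane-spanning nucleoporin, and TPR, the main protein of the nuclear basket. Among all genes there, 1.08% were called lower and 2.73% higher (3.8% in either direction), against 5.71% and 0 of the members. With 2 calls the share rests on single genes. The members were chosen with earlier results of these data known, and the name given to the group includes NUP210, so the share is a description only. At an unadjusted p under 0.05 there were 5 members (14.3%) lower, NUP210, TPR, NUP133, NUP155 and KPNB1, and 0 higher, where all genes gave 4.8% lower and 7.65% higher. The members are more abundant than most genes, since 32 of 35 were abundant, and among all abundant genes 1.83% were called lower and 5.21% higher. Of the 8309 abundant genes 604 (7.27%) were lower and 1139 higher at an unadjusted p under 0.05. The median log2 change of the members was -0.076 (quartiles -0.13 and 0.0051), beside 0.0014 over all genes and 0.011 over abundant genes; it was -0.070 without NUP210L, which had almost no reads. By the authors' deposited table, a total of 25 members (71.4%) lay below 0, against 49.8% of all genes. Reads were divided with other genes in 8 members, POM121, POM121C, RANBP2, NUP62, NUP58, NUP43, NUP107 and SEH1L, as their read sums are not whole, and both called members had whole sums.

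**Figure D1:**
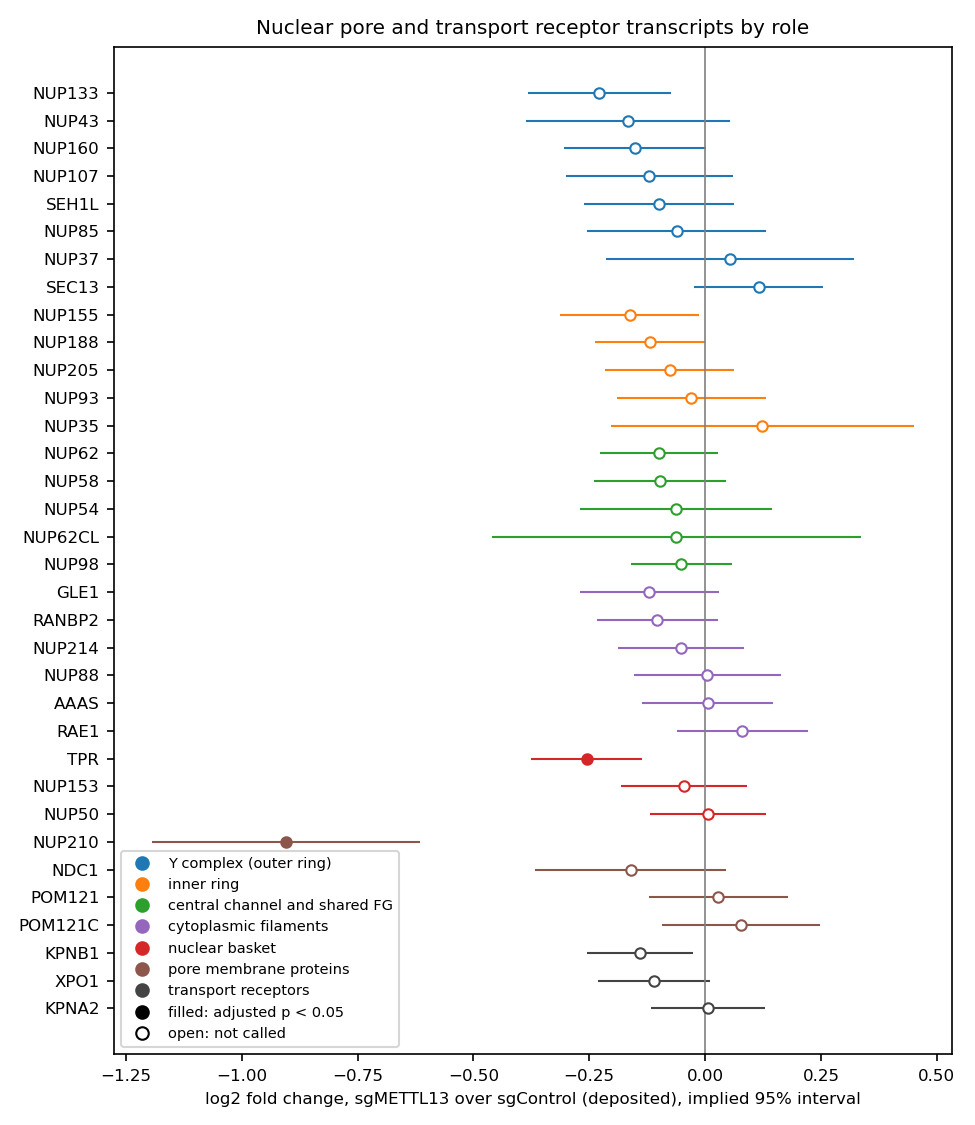
Deposited log2 change of sgMETTL13 over sgControl (x axis) for 34 members, ordered by role and by fold change within a role, with implied 95% intervals as bars. Filled points are the 2 members called lower, NUP210 at -0.90 and TPR at -0.26; the other points are open and lie between -0.23 and 0.12, and NUP210L, which had almost no reads, is not drawn.

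Among the membrane-spanning proteins, which anchor the pore in the nuclear envelope, NUP210 was the 1 that fell. NUP210 (Entrez gene 23225) encodes the pore glycoprotein also known as gp210, whose level is known to differ between cell types. It averaged 149 estimated reads and 2.78 TPM in sgMETTL13, against 288 reads and 5.25 TPM in sgControl, in the authors' deposited table. The deposited log2 change was -0.90 (implied SE 0.148, 95% interval from -1.19 to -0.62), which is 0.534 of the control level, with an adjusted p of 2.45e-07 from the authors' deposited table. Counting error alone, from the reads of the 3 libraries per group, would give an SE of 0.084. The implied SE of NUP210 was 1.05 times the median of genes with a like read count. NUP210 lies on the minus strand of chromosome 3, between 13316235 and 13420309 (GRCh38, GENCODE 29), is protein-coding, and its principal transcript has 40 exons and 7193 bases.

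The other membrane proteins gave no call. NDC1, which anchors scaffold nucleoporins to the membrane, averaged 13.4 TPM in sgMETTL13 and 15.9 TPM in sgControl in the authors' deposited table, with a log2 change of -0.16 (implied 95% interval from -0.37 to 0.046). POM121 averaged 123.1 TPM in sgMETTL13 and 127.3 TPM in sgControl, and its near-identical copy POM121C 44.7 TPM in both, in the authors' deposited table; POM121C had the highest log2 change of the group, 0.078 (implied 95% interval from -0.093 to 0.25). These POM121 values depend on how reads were divided between the copies, since neither gene has whole read sums. Over POM121, POM121C and the fusion copy POMZP3 together, the deposited average reads summed to 7895 in sgMETTL13 and 7923 in sgControl, a log2 ratio of -0.0053 in unscaled reads and 0.046 on the scale of the deposited log2 changes, where abundant genes lie a median of 0.052 above the ratio of reads. The implied SE of POM121 and of POM121C was 1.29 times that of genes with a like read count, the widest excess among the members. NUP210L, the paralog of NUP210 known from testis, averaged 0 reads in sgMETTL13 and 0.333 reads in sgControl in the authors' deposited table, which is under the 3 reads a count of 0 allows, so no fold change is given.

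TPR (Entrez gene 7175) forms the filaments of the nuclear basket, the cage on the inner face of the pore that takes part in mRNA export and chromatin organisation there. It averaged 2391 estimated reads and 31.4 TPM in sgMETTL13, against 2959 reads and 39.4 TPM in sgControl, in the authors' deposited table. The log2 change was -0.26 (implied SE 0.061, 95% interval from -0.38 to -0.14), or 0.838 of the control level, with an adjusted p of 0.0019 in the authors' deposited table. The call was lost once a trend of fold change with transcript composition and size was taken out (GC-length-adjusted log2 change -0.19, adjusted p = 0.058 from the implied SE). TPR lies on the minus strand of chromosome 1, between 186311652 and 186375693 (GRCh38), and its principal transcript has 51 exons and 9708 bases. The other basket proteins gave no call. NUP153, which docks TPR to the pore, had a log2 change of -0.046 (implied 95% interval from -0.18 to 0.090), and NUP50, an FG protein that helps release imported cargo, one of 0.0069 (implied 95% interval from -0.12 to 0.13) in the authors' deposited table. The test of TPR against NUP153 or NUP50 itself was not run, since the table gives no library values.

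The promoters of the 2 genes that fell are shown because they differ in base composition and in the motifs they hold, with NUP107 as the member whose promoter held the most kinds of motif (4 of 5). Each runs from 250 bases before to 50 after the RefSeq gene start, 5′ to 3′ on the gene's strand, from the RefSeq table on GRCh38.p14, and capitals mark motif matches on either strand. NUP210 is from chr3:13420273-13420572 (minus strand), TPR from chr1:186375204-186375503 (minus strand) and NUP107 from chr12:68686728-68687027 (plus strand).
NUP210: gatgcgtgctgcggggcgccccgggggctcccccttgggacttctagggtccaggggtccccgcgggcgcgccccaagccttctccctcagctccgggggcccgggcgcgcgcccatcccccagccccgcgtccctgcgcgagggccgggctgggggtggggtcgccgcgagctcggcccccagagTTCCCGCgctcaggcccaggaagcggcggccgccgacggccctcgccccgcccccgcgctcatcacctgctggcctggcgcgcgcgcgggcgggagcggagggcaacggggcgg
TPR: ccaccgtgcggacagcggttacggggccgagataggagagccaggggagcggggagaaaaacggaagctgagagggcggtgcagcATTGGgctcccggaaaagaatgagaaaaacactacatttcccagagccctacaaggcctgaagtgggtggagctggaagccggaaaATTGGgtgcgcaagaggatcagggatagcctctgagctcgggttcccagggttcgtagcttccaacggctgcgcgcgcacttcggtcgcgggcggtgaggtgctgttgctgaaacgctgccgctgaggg
NUP107: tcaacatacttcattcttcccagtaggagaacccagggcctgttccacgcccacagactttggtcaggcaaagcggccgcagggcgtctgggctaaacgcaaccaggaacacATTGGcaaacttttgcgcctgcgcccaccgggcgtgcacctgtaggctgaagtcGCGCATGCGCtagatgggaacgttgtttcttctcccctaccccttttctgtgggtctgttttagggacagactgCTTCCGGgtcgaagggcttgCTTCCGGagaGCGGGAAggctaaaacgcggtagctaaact

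The motifs searched on both strands were CCGGAAG (ETS factors), CATGCGC (half-site of NRF1), CCAAT (NF-Y), TTCCCGC (E2F) and TTTGAA (the cell cycle element CHR). The NUP210 promoter was 81.3% G and C and held 1 match, the E2F letters beginning 64 bases before the start. The TPR promoter was 61.3% G and C and held 2 CCAAT matches and none of the other motifs, and the NUP107 promoter was 57% G and C. In NUP107 the 2 NRF1 half-site matches overlap on opposite strands. RefSeq promoters were matched for 32 of the 35 members, with a median G and C content of 63.2%, and for 13104 genes of the table, with a median of 64.3%. ETS letters were in 13 of 32 member promoters (40.6%), against 16.5% of the promoters of all genes. The CHR letters were in 7 (21.9%, against 10.7%), the E2F letters in 6 (18.8%, against 9.45%), the NRF1 half-site in 5 (15.6%, against 6.59%) and CCAAT in 14 (43.8%, against 36.3%). Neither NUP210 nor TPR was among the 13 members with ETS letters. These are matches of letters in a fixed window and say nothing of binding.

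In the outer ring, the Y complex that coats both faces of the pore, 6 of 8 members lay below 0 and 0 were called in the authors' deposited table (1 lower at an unadjusted p under 0.05, NUP133). NUP133, which tethers the complex to curved membrane, came nearest to the threshold. It averaged 733 reads in sgMETTL13 and 891 reads in sgControl, with a log2 change of -0.23 (implied SE 0.079, 95% interval from -0.38 to -0.075) and an adjusted p of 0.077 in the authors' deposited table. NUP133 was called where the adjustment was recomputed over abundant genes alone (adjusted p = 0.042 from the deposited p-values, where 2.62% of those genes were lower), but not after GC-length adjustment (adjusted p = 0.242 from the implied SE). The scaffold subunits NUP43, NUP160, NUP107, SEH1L and NUP85 had log2 changes of -0.17, -0.15, -0.12, -0.099 and -0.062 per the authors' deposited table. NUP37 averaged 244.3 reads in both groups in the authors' deposited table (log2 change 0.053, implied 95% interval from -0.22 to 0.32). SEC13, which also builds COPII vesicle coats, had the highest log2 change of the ring, with 127.4 TPM in sgMETTL13 and 124.4 TPM in sgControl in the authors' deposited table (log2 change 0.12, implied 95% interval from -0.023 to 0.25).

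The inner ring, which links the scaffold to the channel, had 4 of 5 members below 0 and 0 called in the authors' deposited table (1 lower at an unadjusted p under 0.05, NUP155). NUP155 had the lowest log2 change, with 26.0 TPM in sgMETTL13 and 30.6 TPM in sgControl and a log2 change of -0.16 per the authors' deposited table (implied SE 0.076, 95% interval from -0.31 to -0.014, adjusted p = 0.314). NUP188 averaged 138.1 TPM in sgMETTL13 and 157.9 TPM in sgControl in the authors' deposited table, a log2 change of -0.12. Its partners in the same ring, NUP205 and NUP93, had log2 changes of -0.076 and -0.030 per the authors' deposited table. NUP93, the highest of the abundant members of the ring, averaged 42.3 TPM in sgMETTL13 and 45.7 TPM in sgControl there (implied 95% interval from -0.19 to 0.13). NUP35, a small membrane-binding subunit of the ring, averaged 154 reads in sgMETTL13 and 146 reads in sgControl in the authors' deposited table, and its log2 change of 0.12 has an implied 95% interval from -0.20 to 0.45.

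The FG proteins of the central channel form the barrier that transport receptors cross. All 5 genes of this group lay below 0, between -0.099 and -0.051 on the log2 scale, and 0 were called in the authors' deposited table (also 0 at an unadjusted p under 0.05). NUP62, the core channel protein, averaged 109.8 TPM in sgMETTL13 and 124.4 TPM in sgControl (log2 change -0.099, implied 95% interval from -0.23 to 0.029), and its partners NUP58 and NUP54 had log2 changes of -0.098 and -0.063, per the authors' deposited table. NUP98, whose precursor is cleaved into the FG protein NUP98 and the scaffold protein NUP96, averaged 3522 reads in sgMETTL13 and 3782 reads in sgControl in the authors' deposited table (log2 change -0.051, implied 95% interval from -0.16 to 0.058). NUP62CL, a paralog of the C-terminal part of NUP62, averaged 96.3 reads in sgMETTL13 and 104.3 reads in sgControl in the authors' deposited table and is the member with the fewest reads after NUP210L.

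On the cytoplasmic face, where exported mRNPs are remodelled and the Ran cycle ends, 3 of 6 members lay below 0 and 0 were called in the authors' deposited table (also 0 at an unadjusted p under 0.05). GLE1, which activates the RNA helicase of mRNA export, had 58.2 TPM in sgMETTL13 and 66.5 TPM in sgControl and a log2 change of -0.12 (implied 95% interval from -0.27 to 0.029) in the authors' deposited table. RANBP2, the giant filament protein that binds Ran and acts as a SUMO ligase, averaged 2064 reads in sgMETTL13 and 2298 reads in sgControl in the authors' deposited table, a log2 change of -0.10. RANBP2 shares sequence with the RGPD genes, and with 7 RGPD copies added the deposited average reads were 2607 in sgMETTL13 and 2821 in sgControl. The log2 ratio of unscaled reads was -0.15 for RANBP2 alone and -0.11 with the copies added; on the deposited scale the values were -0.10 for RANBP2 alone and -0.062 with the copies added. NUP214 and NUP88, which form a subcomplex there, had log2 changes of -0.052 and 0.0047, and AAAS, the aladin gene mutated in triple A syndrome, one of 0.0055, per the authors' deposited table. RAE1, an mRNA export factor that binds NUP98, had the highest log2 change of the group, 0.080 (implied 95% interval from -0.061 to 0.22) in the authors' deposited table.

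The 3 transport receptors gave 0 calls in the authors' deposited table, and 1, KPNB1, was lower at an unadjusted p under 0.05. KPNB1, importin beta, which carries cargo through the FG barrier, averaged 175 TPM in sgMETTL13 and 203 TPM in sgControl in the authors' deposited table. Its log2 change was -0.14 (implied SE 0.058, 95% interval from -0.25 to -0.027) and did not pass the test (adjusted p = 0.196 in the authors' deposited table). KPNA2, an importin alpha that reads the nuclear localisation signal, averaged 211 TPM in sgMETTL13 and 220 TPM in sgControl in the authors' deposited table, with a log2 change of 0.0070 (implied 95% interval from -0.12 to 0.13). XPO1, the exportin of proteins with a leucine-rich export signal, had 52.1 TPM in sgMETTL13 and 58.9 TPM in sgControl in the authors' deposited table, a log2 change of -0.11 (implied 95% interval from -0.23 to 0.011).

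The 30 abundant members that were not called had implied SEs from 0.056 (NUP98) to 0.137 (NUP37). Their log2 changes ranged from -0.23 to 0.12, or 0.853 to 1.08 of the control level, in the authors' deposited table. No implied 95% interval among them reached below -0.39 (NUP43) or above 0.32 (NUP37), and -0.90, the value of NUP210, lies outside each of them.

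Transcript levels of the pore genes differed far more between genes than between groups. In deposited average TPM, which is per length, NUP210 was the lowest member after NUP210L, at percentile 42.8 of all genes in sgControl, and KPNA2 the highest, at percentile 95.9. Leaving out NUP210L, the highest level was 75.8 times the lowest in sgMETTL13 and 42.0 times the lowest in sgControl. Subunits of the same ring spanned a wide range too, with a ratio of highest to lowest TPM of 13.0 in sgMETTL13 and 10.6 in sgControl within the Y complex. The 3 basket genes were the closest to each other, with a ratio of 1.58 in sgMETTL13 and 1.32 in sgControl. Over the 32 pore proteins the deposited average TPM summed to 1451 in sgMETTL13 and 1573 in sgControl. By TPM 31 of 35 members were lower in sgMETTL13, whereas 25 of 35 were by the deposited log2 change; over all genes the shares were 63.8% and 49.8%. The deposited log2 change of abundant genes was a median of 0.052 above the log2 ratio of deposited reads. Members between these scales, above 0 by fold change and lower by TPM, were KPNA2, NUP88, NUP50, AAAS, POM121 and NUP37.

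**Figure D2:**
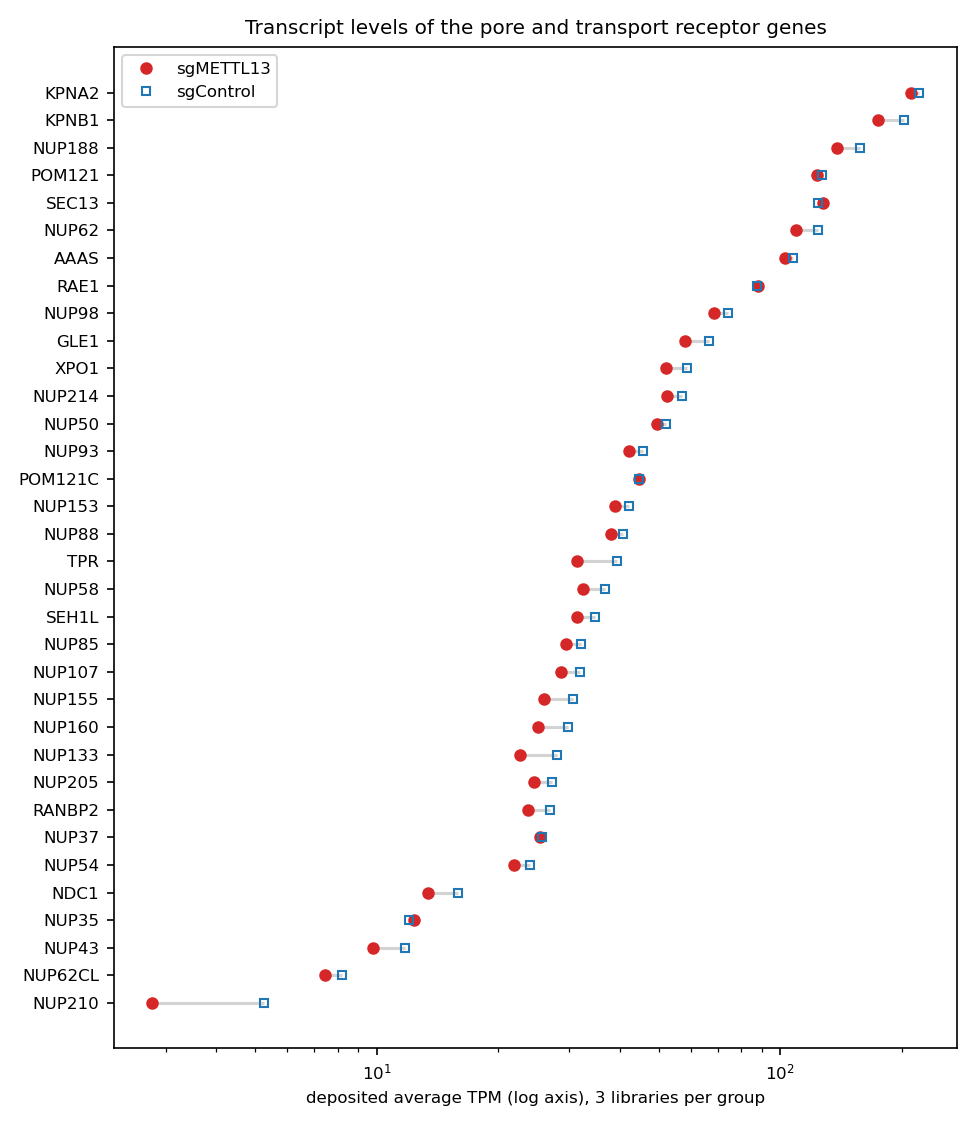
Deposited average TPM (x axis, log scale) of 34 members in sgMETTL13 (filled circles) and sgControl (open squares), 3 libraries averaged by the authors in each, ordered by the sgControl level. The widest gap is that of NUP210 at the bottom, 2.78 TPM in sgMETTL13 against 5.25 TPM in sgControl; NUP210L is not drawn.

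**Figure D3:**
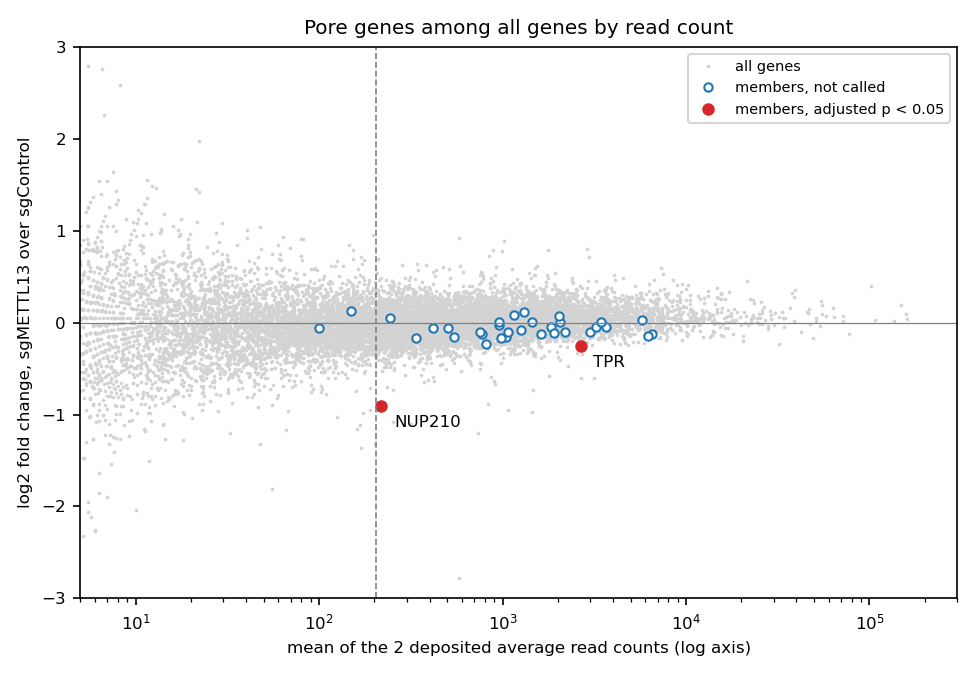
Log2 fold change of sgMETTL13 over sgControl (y axis) against the mean of both deposited average read counts (x axis, log scale) for all genes (grey) and the members (circles; filled where called). The dashed line is the median of 205 mean reads; NUP210 lies just right of it, with 149 reads in sgMETTL13 and 288 in sgControl, and the 32 members drawn as not called lie between -0.23 and 0.12; NUP210L is not drawn.

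The members have longer transcripts with more exons and lower GC content than most genes, features the choice by name did not use. Their principal transcripts in GENCODE 29 had a median of 5206 bases, 18 exons and 44.9% GC, against 3245 bases, 8 exons and 49.6% GC over all genes. Fold change was lower at greater length among the 32 abundant members (Spearman rho -0.43), and also among 8289 abundant genes (rho -0.26); genes share their libraries and are not independent replicates. The median log2 change of the 18 members over 5000 bases was -0.11, with 83.3% below 0, against -0.033 and 60.7% for all 2407 genes of that length and depth. The 7 members under 2500 bases had a median of 0.0055, with 42.9% below 0, against 0.052 and 33.5% for 2550 genes. After GC-length adjustment 1 member was called, NUP210 (log2 change -0.94, adjusted p = 7.77e-08 from the implied SE), where 2.7% of genes were called, 1.04% lower and 1.66% higher. The median of the members was then -0.061, beside -0.020 over all genes. By the adjusted values 27 of the 35 members (77.1%) lay below 0, against 54.7% of genes. For the 32 abundant members the adjusted median was -0.063 with 78.1% below 0, against -0.0083 and 52.9% for abundant genes. The part of length and GC content in the other lower values was not tested beyond this.

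**Figure D4:**
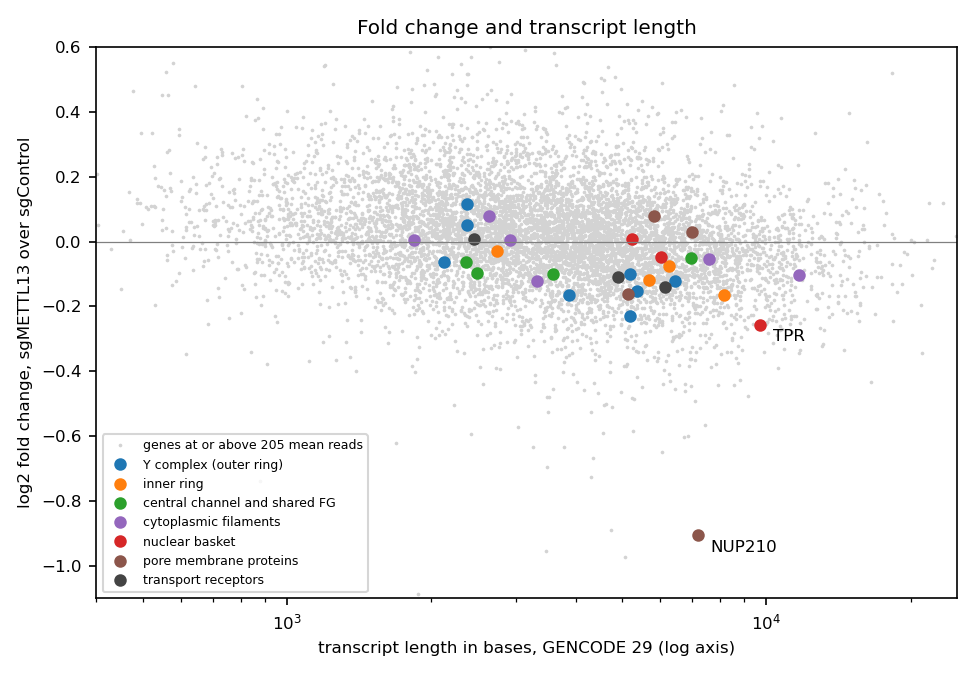
Log2 fold change of sgMETTL13 over sgControl (y axis) against the length of the principal transcript (x axis, log scale) for 32 members (coloured by role) and all abundant genes (grey; a few lie outside the axes). The 18 members over 5000 bases have a median of -0.11 and the 7 under 2500 bases one of 0.0055, and NUP210 is the lowest member.

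Beyond the 35 members, 81 measured genes of 6 lists around the pore gave 3 lower and 2 higher calls (6.17%, against 3.8% of all genes and 7.04% of abundant genes, 75 of the 81 being abundant) with a median of 0.0031 in the authors' deposited table. Among other pore and pore assembly genes 1 was lower and 1 higher of 17 (11.8%), all 17 being abundant. AHCTF1 encodes ELYS, the subunit that seeds pore assembly on chromatin and joins the Y complex. It averaged 1173 reads and 16.9 TPM in sgMETTL13, against 1532 reads and 22.5 TPM in sgControl, in the authors' deposited table. Its log2 change was -0.33 (implied SE 0.070, 95% interval from -0.47 to -0.20), with an adjusted p of 0.00019 in the authors' deposited table, and AHCTF1 stayed called after GC-length adjustment (-0.27, adjusted p = 0.0064). AHCTF1 lies on the minus strand of chromosome 1, between 246839098 and 246931967 (GRCh38). MAD1L1, a spindle checkpoint protein that docks at the basket on TPR, rose by 0.30 on the log2 scale per the authors' deposited table (1610 reads in sgMETTL13 and 1356 reads in sgControl, adjusted p = 0.0023), a call lost after that adjustment (0.21, adjusted p = 0.124).

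Of the 16 other importins 13 lay below 0 (81.25%, against 49.8% of all genes). Of these importins 1 fell (6.25%, against 1.08% of all genes called lower), IPO9, an importer of histones and ribosomal proteins. IPO9 averaged 2349 reads in sgMETTL13 and 2858 reads in sgControl, with a log2 change of -0.23 and an adjusted p of 0.0035 in the authors' deposited table; after GC-length adjustment it was not called (-0.19, adjusted p = 0.051). The 6 other exportins had 5 values below 0 and 0 calls in the authors' deposited table (1 lower at an unadjusted p under 0.05). Medians were -0.077 for importins and -0.100 for exportins, near the -0.11 of the 3 receptors among the members. These are lists of long transcripts, with median lengths of 4818, 5112.5 and 4915 bases, against 3245 over all genes. Of abundant genes over 5000 bases 60.7% lay below 0, and of those from 2500 to 5000 bases 46.7%. After GC-length adjustment the 3 medians were -0.055, -0.076 and -0.066, beside -0.020 over all genes and -0.0083 over abundant genes. The 9 Ran cycle genes and 17 mRNA export genes had 0 calls in the authors' deposited table and medians of 0.051 and 0.016. At an unadjusted p under 0.05 there were 2 Ran cycle genes higher, and 2 mRNA export genes higher and 1 lower. At that p 7.65% of all genes were higher and 4.8% lower, and of 8309 abundant genes 1139 were higher and 604 lower.

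In the nuclear lamina and inner envelope 1 of 16 genes rose and 1 fell. That is 12.5% called, against 3.8% of all genes and 7.04% of abundant genes, 13 of the 16 being abundant. LMNA, the lamin A/C gene, averaged 466 TPM in sgMETTL13 and 397 TPM in sgControl and rose by 0.30 on the log2 scale (implied 95% interval from 0.17 to 0.43, adjusted p = 0.00041) in the authors' deposited table. TMPO, which encodes the lamina-associated LAP2 proteins, averaged 40.4 TPM in sgMETTL13 and 51.3 TPM in sgControl and fell by 0.28 on the log2 scale (implied 95% interval from -0.41 to -0.14, adjusted p = 0.0044) in the authors' deposited table. Both stayed called after GC-length adjustment, LMNA at 0.22 (adjusted p = 0.040) and TMPO at -0.25 (adjusted p = 0.019). LMNB1, the lamin B1 gene, had 447 reads in sgMETTL13 and 574 reads in sgControl, a log2 change of -0.31 that did not pass the test (adjusted p = 0.081) in the authors' deposited table. At an unadjusted p under 0.05 the list had 3 genes higher and 2 lower, where 7.65% of all genes were higher and 4.8% lower. EMD and SYNE2, also not called, had log2 changes of 0.25 (adjusted p = 0.139) and 0.12 (adjusted p = 0.391) in the authors' deposited table. LMNB1, EMD and SYNE2 are named here after their values were seen.

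**Figure D5:**
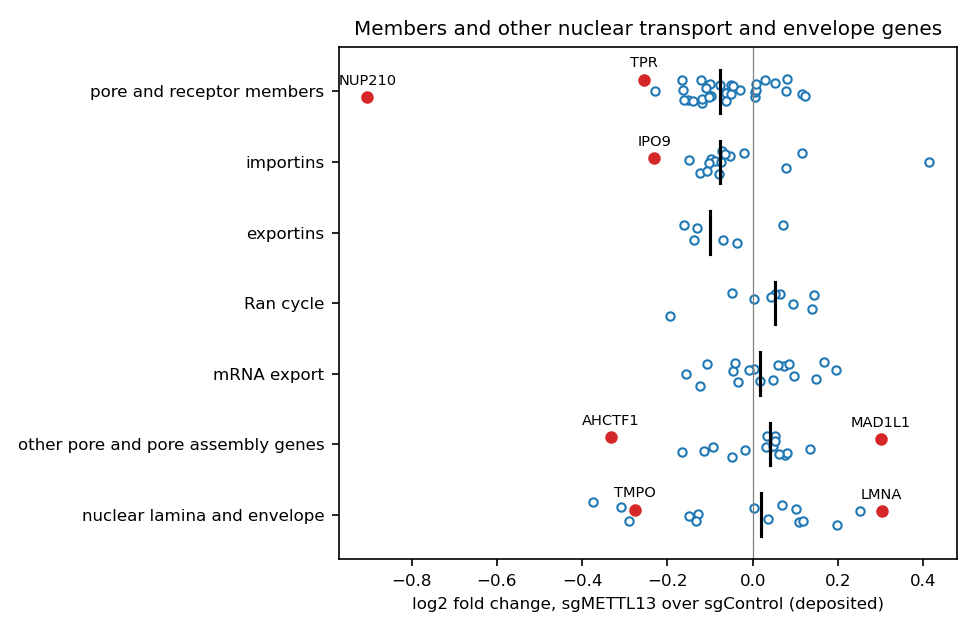
Deposited log2 change of sgMETTL13 over sgControl (x axis) of each gene in the member group and the 6 lists around it (rows); filled points have an adjusted p under 0.05, and black bars are medians (-0.076 for the members). NUP210L is not drawn. Filled points are NUP210, TPR, IPO9, AHCTF1 and TMPO to the left of 0, and MAD1L1 and LMNA to the right.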

How the data were processed

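TRIzol was used to extract RNA, per the labels' protocols, and sample titles gave the groups, 3 sgMETTL13 and 3 sgControl libraries. The submitters' processing notes name RSEM 1.2.12, Bowtie2 2.2.5, HISAT2 2.0.4 and DESeq2 with the builds hg38 and GRCh38.p12, and no roles. Per the file headers the deposited table holds group averages of TPM, FPKM (not used) and read count, a log2 ratio and a p-value and q-value. The deposited read counts are averages of estimated counts (expected counts), since 21.4% of genes, and 8 of the 35 members, are not whole in sum over the 3 libraries (tolerance 0.005). No header or label names the test that gave the deposited p-value. The depth of single libraries is unknown.

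No count model was fitted, since the table has no library values; the deposited comparison over all 16617 genes is the test. The implied SE is the size of the deposited log2 change over the normal quantile of its two-sided p-value. Transcript length and GC content come from GENCODE 29 (GRCh38) by Entrez ID for 16211 genes (97.6%), 1 principal or longest transcript a gene; the trend of fold change with both was removed (GC-length adjustment) with weighted splines (weights from the implied SE, 4 degrees of freedom), checked on simulated data. Medians of SE in genes of like depth used windows of 501 genes. Alternatives were adjusted p thresholds of 0.01 and 0.10, Bonferroni and recomputed adjustments, abundant genes alone, centred values, the GC-length adjustment and ratios of reads or TPM. Lists and members were chosen with earlier results of these data known. Every member is named; full statistics are for the called members and, in each role, the highest and lowest log2 change among abundant members. Of the lists around the pore the called genes are named, and besides them LMNB1, EMD, SYNE2 and the uncalled genes on chromosome 1. The software was matplotlib 3.10.9, patsy 1.0.2, scipy 1.17.1, pandas 2.3.3, numpy 2.4.6 and Python 3.11.15.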

Additional observations from a re-analysis of the deposited data

How the results depend on the processing

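No paired analysis was possible because the table holds group averages, and for the same reason no library could be left out. NUP210 stayed lower and called under each other threshold, adjustment and centring run, from -0.94 to -0.90. The thresholds, the Bonferroni and recomputed adjustments and the abundant genes alone reuse its deposited fold change and p-value. They are therefore no separate support for the call. Centring gave -0.92 and the GC-length adjustment -0.94. As untested ratios it was -0.96 in reads, -0.89 in TPM with a pseudocount of 0.1 and -0.73 with a pseudocount of 1, which understates changes of low genes. With a Bonferroni adjustment 1 member was lower (NUP210), and in the lists around the pore 1 gene was lower and 0 higher. After GC-length adjustment 1 member was lower (NUP210), and TPR lost its call. Of those lists 2 genes were then lower (AHCTF1 and TMPO) and 1 higher (LMNA). The count of members called lower was 2 to 3 under the remaining settings, with NUP133 added at an adjusted p under 0.10 or over abundant genes alone. Chosen after seeing the data were the counts over pore proteins alone (2 lower of 32) and over members with whole reads alone (2 lower of 27). The median of the members lay between -0.14 and -0.061 in the settings run. Depth limits NUP62CL, NUP35 and NUP210L, which lie under the median read count.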

Other observations

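The genes that neighbour NUP210 on chromosome 3 were looked up after its values were seen. IQSEC1, the next gene on the side of lower coordinates, was also lower, with 679 reads in sgMETTL13 and 883 reads in sgControl, a log2 change of -0.33 and an adjusted p of 0.0048 in the authors' deposited table (-0.37 after GC-length adjustment, adjusted p = 0.0011). IQSEC1 encodes an exchange factor for ARF GTPases and lies from 12897220 to 13283281 on the minus strand in GRCh38 as annotated by GENCODE 29. HDAC11, the next gene on the other side, had 29.7 reads in sgMETTL13 and 32.3 reads in sgControl in the authors' deposited table and gave no call (log2 change -0.075, implied SE 0.346). RPL32 and WNT7A, further out, had log2 changes of -0.017 and 0.097 per the authors' deposited table and were not called. Whether the falls of NUP210 and IQSEC1 are linked was not tested. Places on chromosome 1 were also compared after the values were seen. TPR, IPO9 and AHCTF1, which fell, and NUP133 start there at 186311652, 201829141, 246839098 and 229440260. On the same chromosome LMNA (start 156082573) rose. The other genes of the group and lists there were not called, and NUP210L among them had almost no reads. Log2 changes were -0.0091 for ZC3H11A (start 203795654), -0.15 for LBR (start 225401502) and -0.092 for TOR1AIP1 (start 179882042). They were -0.16 for NDC1, -0.13 for TMEM201, -0.075 for KPNA6, -0.072 for IPO13, 0.016 for CHTOP and 0.0032 for RCC1. Whether place on the chromosome, also relative to the targeted gene METTL13, had a part was not tested.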
